A study of Mus musculus with 3 samples.

Results

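Kainate receptors and their Neto auxiliary proteins are encoded in the mouse by 7 genes, Grik1, Grik2, Grik3, Grik4, Grik5, Neto1 and Neto2, and their mRNA levels were measured in FACS-purified hippocampal neurons. The 7 genes were chosen by name, by matching the Ensembl identifier of each row to the symbol of GENCODE vM21, and all 7 were found among the 52636 genes of the count table. The RNA came from tdTomato-positive cells of Camk2a-Cre +/-, Ai14 +/- mice on the C57BL/6J background, all male and aged 28 to 32 days. There were 3 biological replicates of this 1 condition, each pooled from 2 to 4 mice, so the levels of the genes are compared with each other and not between conditions. Cre under the Camk2a promoter acts in part of the excitatory neurons of the forebrain. The study describes it as limited to CA1 pyramidal neurons in the hippocampus, and the samples are labelled as such neurons. Whole hippocampi were dissociated, and the sort used tdTomato and not a dissected CA1. In bulk RNA, fewer cells of a type and less RNA per cell cannot be told apart.

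The 3 libraries held 15833075 to 48159841 assigned counts, replicate 1 having the most and replicate 3 the fewest. All 8 CA1 pyramidal neuron markers and all 5 excitatory neuron markers of the lists used reached a CPM of 1 in each replicate, and so did 2 of 5 interneuron markers. Of the protein-coding genes 57.0% reached it, and of all genes 30.3%. The median level of the CA1 markers was 75.9 ± 12.3 TPM (SD, n = 3), against 4.66 ± 0.889 for the CA3 markers, 28.3 ± 5.57 for the dentate granule neuron markers, 5.16 ± 2.09 for the astrocyte markers, 19.3 ± 5.83 for the oligodendrocyte markers and 0.503 ± 0.356 for the interneuron markers. All 8 oligodendrocyte markers were detected by the same threshold, with Mbp, a myelin protein gene, at 114 ± 18.9 TPM, and the part of such cells in the levels of the members was not tested. Of the interneuron markers, Slc32a1, the vesicular GABA transporter, had 19, 0 and 0 counts in replicates 1, 2 and 3. CPM is the count scaled to a fixed total of counts per library, and TPM is the count divided by the merged exon length of the gene and scaled to a fixed sum over all genes of a library. Gm23935, a 57 bp feature, took 32.7 to 48.3% of that sum, which lowered the TPM of all other genes by a different amount in each replicate.

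Kainate receptors are tetrameric glutamate-gated cation channels found on both sides of hippocampal synapses, where they act in slow excitatory transmission, in the control of transmitter release and in the control of neuronal excitability. Grik1, Grik2 and Grik3 encode GluK1, GluK2 and GluK3, the low-affinity subunits, which can form channels on their own. Grik4 and Grik5 encode GluK4 and GluK5, the high-affinity subunits, which form working channels only together with a low-affinity subunit. Neto1 and Neto2 encode single-pass membrane proteins with CUB domains that bind the receptor and slow its closing kinetics. Mossy fiber synapses of dentate granule neurons onto CA3 pyramidal neurons are the classical site of kainate receptor currents in the hippocampus.

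The subunits share the pore loop, which holds a site where recoding of some of their mRNAs is known to change channel behaviour. The mRNAs of Grik1 and Grik2, like that of the AMPA receptor subunit gene Gria2, can be recoded by ADAR enzymes at a glutamine codon of the pore loop, the Q/R site, which lowers calcium permeability. The windows of 30 bases below were read from the GENCODE vM21 transcripts (GRCm38), run 5′ to 3′ on the transcript strand, and have the codon at this position in capitals. They are shown because all 5 kainate receptor genes and Gria2 have the same genomic codon there, while the bases around it differ.
Grik1: ggagctctcatgCAGcaaggatcggagctg
Grik2: ggagctctcatgCAGcaaggttctgagctc
Grik3: ggctccctgatgCAGcaaggatctgaactg
Grik4: ggaggcttcatgCAGcaaggctccactatt
Grik5: ggtggcttcatgCAGcagggctcggagatc
Gria2: ggtgcctttatgCAGcaaggatgcgatatt
The codon lies at chr16:87940542-87940544 in Grik1, chr10:49244329-49244331 in Grik2, chr9:42547623-42547625 in Grik4, chr7:25022497-25022499 in Grik5 and chr3:80706911-80706913 in Gria2, all on the minus strand, and at chr4:125691207-125691209 on the plus strand in Grik3. All 6 codons are in coding exons. The windows of Grik1, Grik2 and Grik3 cross an exon junction, and those of Grik4, Grik5 and Gria2 lie within 1 exon.

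Grik1 and Grik2 shared 27 of the 30 bases, the highest number among the 10 pairs of kainate receptor genes. Grik1 and Grik3 shared 24, Grik2 and Grik3 shared 23, and Grik4 and Grik5 shared 23. Pairs of a low-affinity and a high-affinity subunit gene shared 18 to 22 bases, fewer than any pair within a class. The windows were found by an amino acid pattern around the codon, so part of their likeness was set by that choice. Gria2 shared 20 to 23 bases with the kainate receptor genes, most with Grik4. Grik4 thus shared as many bases with Gria2 as with Grik5, 23 in each case. Gene counts do not record which base a read held, so the edited share of these mRNAs was not measured.

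Of the 7 genes, 6 had at least 1 CPM in each replicate and are called detected here. Grik1 was not. The same threshold was met by 57.0% of the 21896 protein-coding genes and by 30.3% of all genes in the table. With at least 1 TPM in each replicate as the criterion, the same 6 genes passed, against 53.6% of protein-coding genes and 31.8% of all genes. With at least 10 counts in each replicate, all 7 passed, against 61.0% of protein-coding genes and 35.2% of all genes. The order by mean TPM was Grik5, Grik4, Grik2, Neto1, Grik3, Neto2 and Grik1, and the means spanned 143 to 0.377 TPM. The median TPM of all 12484 detected protein-coding genes was 11.8, which lies between the levels of Neto1 and Grik3 in this order.

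**Figure D1:**
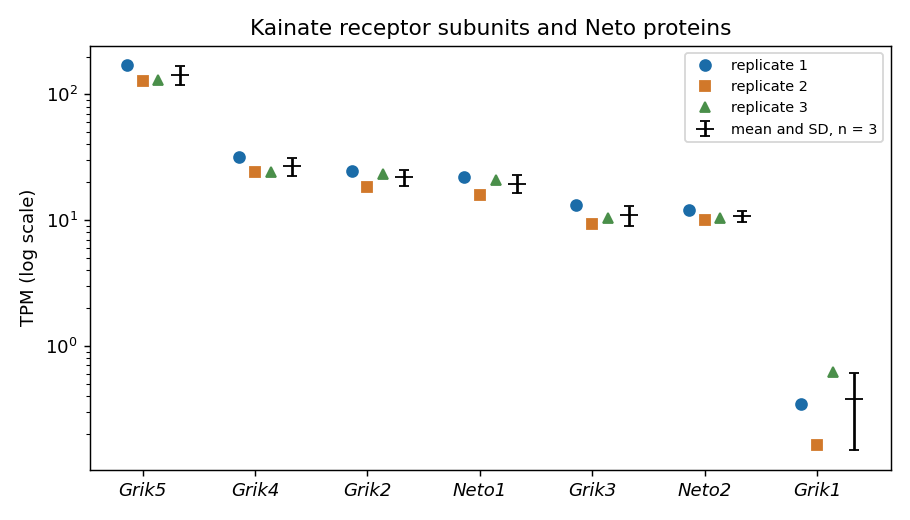
TPM (log axis) of the 7 genes, ordered by mean, with 1 point for each of the 3 replicates and the mean and SD beside them. Grik5 lies at 128 to 171 TPM, the next 5 genes lie between 9.26 and 31.9 TPM, and Grik1 lies at 0.163 to 0.620 TPM.

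Grik5 (ENSMUSG00000003378.9), the more widely expressed of the high-affinity subunit genes in the brain, was the most abundant member. Its 62.5 kb locus is at chr7:25009849-25072346 on the minus strand. It had 19689, 10480 and 5995 counts in replicates 1, 2 and 3, which gave 171, 128 and 131 TPM. Replicate 1 was highest and replicates 2 and 3 were close to each other. The mean of 143 ± 23.9 TPM (SD, n = 3) ranked 274 among the 12484 detected protein-coding genes, in percentile 97.8, and was above the 95th percentile of 86.4 TPM.

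Grik4 (ENSMUSG00000032017.14), whose mRNA is known from CA3 pyramidal and dentate granule neurons, came next. The gene is at chr9:42518135-42944493 on the minus strand, a span of 426.4 kb. It had 4240, 2297 and 1272 counts and 31.9, 24.3 and 24.0 TPM in replicates 1, 2 and 3, a mean of 26.7 ± 4.44 TPM (SD, n = 3) in percentile 76.1. Grik5 exceeded Grik4 by 2.42 ± 0.02 on the log2 scale (SD, n = 3), a 5.35-fold difference, in all 3 replicates. The ranges of these genes did not overlap. The exact sign-flip permutation test over the 3 replicates gave p = 0.25, two-sided (0.3 adjusted over the 6 neighbouring pairs), and 0.25 is the smallest p that this test can give with 3 replicates, so no ratio could pass 0.05 by it. With the longest coding transcript as the length of each gene, the difference was 7.26-fold.

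Grik2 (ENSMUSG00000056073.16), which encodes the low-affinity subunit that hippocampal kainate currents mostly depend on, was the most abundant of its class. Its locus at chr10:49094833-49788766, minus strand, is the longest of the 7 with 693.9 kb, and its merged exons of 13246 bp are also the longest. The counts were 7250, 3832 and 2721, which gave 24.5, 18.3 and 23.1 TPM in replicates 1, 2 and 3. Replicate 2 was the lowest. The mean was 22.0 ± 3.29 TPM (SD, n = 3), in percentile 70.5. Grik4 exceeded Grik2 in all 3 replicates by 0.28 ± 0.20 on the log2 scale (1.22-fold), but their ranges overlapped, and the order of these genes depended on the length by which counts were divided.

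Grik3 (ENSMUSG00000001985.9), which encodes the subunit with the lowest glutamate sensitivity of the class, was detected at a lower level. The gene is at chr4:125490700-125714173 on the plus strand. It had 2622, 1316 and 827 counts and 13.1, 9.26 and 10.4 TPM in replicates 1, 2 and 3, with a mean of 10.9 ± 1.97 TPM (SD, n = 3). Grik2 was higher than Grik3 in every replicate, by 1.01 ± 0.13 on the log2 scale or 2.02-fold, with no overlap of their ranges (exact p = 0.25, two-sided). With the longest coding transcript it was 2.84-fold.

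Grik1 (ENSMUSG00000022935.15), whose mRNA is known in the hippocampus mainly from interneurons, was the lowest member. The gene is at chr16:87895901-88290258 on the minus strand. Only 48, 16 and 34 counts were assigned to it in replicates 1, 2 and 3, which gave 0.348, 0.163 and 0.620 TPM and a mean of 0.377 ± 0.230 TPM (SD, n = 3). The exact Poisson 95% intervals were 0.257 to 0.461, 0.0934 to 0.265 and 0.429 to 0.866 TPM, and they cover counting error only. The interval of replicate 3 lay above that of replicate 2, so these replicates differed by more than counting error allows. All 3 values were above the level of 3 counts, the limit that a count of 0 allows, which was 0.0217, 0.0306 and 0.0547 TPM. Neto2, the next gene above it, was 32.7-fold higher (5.03 ± 0.94 on the log2 scale), with no overlap, and 21.1-fold higher with the longest coding transcript as the length.

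Neto1 (ENSMUSG00000050321.2), known for its part in the slow kainate currents of mossy fiber synapses, is at chr18:86394952-86501897 on the plus strand. It had 1728, 892 and 648 counts and 21.9, 15.9 and 20.7 TPM in replicates 1, 2 and 3, with a mean of 19.5 ± 3.15 TPM (SD, n = 3) in percentile 67.2. Replicate 2 was the lowest, as for Grik2, and the log2 ratio of Grik2 to Neto1 varied by an SD of 0.02 around 0.17 (1.13-fold). The ranges of Grik2 and Neto1 overlapped. Grik2 was 3.75-fold above Neto1 with the longest coding transcript as the length, 1.58-fold with its bases inside the table's model, and 2.08 higher on the log2 scale with no division by length, so of the lengths tried only merged exons gave nearly equal levels. The count table gives Neto1 3531 bp of exons, while the exons of GENCODE vM21 come to 8352 bp, so reads in the rest of the longer model were not counted for this gene.

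Neto2 (ENSMUSG00000036902.11), the paralog of Neto1, is at chr8:85636588-85700924 on the minus strand. Its counts of 1637, 968 and 563 gave 11.96, 9.97 and 10.3 TPM in replicates 1, 2 and 3 and a mean of 10.8 ± 1.06 TPM (SD, n = 3). It could not be told from Grik3, since the log2 ratio of Grik3 to Neto2 was 0.01 ± 0.12, Grik3 was higher in 2 of 3 replicates and the ranges overlapped (exact p = 0.75, two-sided, 0.75 adjusted). Neto1 was higher than Neto2 in each replicate, by 0.87, 0.68 and 1.00 on the log2 scale (0.85 ± 0.16, SD, n = 3; 1.80-fold). With the longest coding transcript of vM21 as the length this ratio reversed to -0.52, because the length of Neto1 became 8352 bp.

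The make-up of kainate receptor mRNA was much the same in the 3 replicates. Grik5 took 71.0, 71.1 and 69.2% of the summed TPM of the 5 subunit genes, a mean of 70.4% ± 1.07 (SD, n = 3). Grik4 took 13.2% ± 0.399, Grik2 10.9% ± 1.20, Grik3 5.36% ± 0.191 and Grik1 0.188% ± 0.124. The largest departure was in replicate 3, where the share of Grik2 was 12.3% against 10.2 and 10.1% in replicates 1 and 2.

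**Figure D2:**
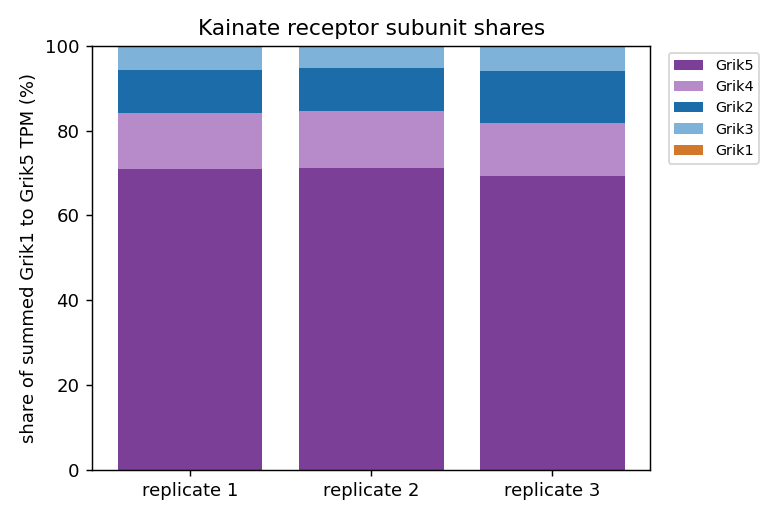
Share of the summed TPM of the 5 kainate receptor subunit genes taken by each gene, in percent, in each of the 3 replicates. Grik5 takes 69.2 to 71.1%, and the high-affinity genes Grik4 and Grik5 together take 81.9 to 84.6%.

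Grouped by affinity class, the high-affinity genes Grik4 and Grik5 summed to 203, 152 and 155 TPM in replicates 1, 2 and 3. The low-affinity genes Grik1, Grik2 and Grik3, at least 1 of which each receptor needs, summed to 38.0, 27.7 and 34.1 TPM. The high-affinity sum was 5.10-fold higher (2.35 ± 0.15 on the log2 scale, SD, n = 3; exact p = 0.25, two-sided). Most of this difference was Grik5, which alone was 6.51-fold above Grik2. The Neto genes summed to 33.9, 25.9 and 31.02 TPM, so the subunit mRNAs were 6.69-fold more abundant than those of the Netos. With the longest coding transcript as the length the ratio was 13.3-fold, and with its bases inside the table's model 8.49-fold. The 13.3-fold value divides Neto1 counts from 3531 bp of exons by 8352 bp, which lowers the level of Neto1. The same holds for the 2.11-fold value below. The low-affinity sum exceeded the Neto sum in all 3 replicates, by 1.10-fold with merged exons, where the ranges overlapped, by 2.11-fold with the longest coding transcript and by 1.35-fold with its bases inside the table's model. These are ratios of mRNA and give no count of receptors or of subunits in them.

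Among the 18 ionotropic glutamate receptor genes, with merged exons as the length, Grik5 ranked 3, below the AMPA receptor subunit genes Gria1 and Gria2. Gria1 had 433 ± 60.4 TPM and Gria2 269 ± 25.9 TPM (SD, n = 3), and neither range overlapped that of Grik5. Next below Grik5 was Grin2b, an NMDA receptor subunit gene, with 148, 135 and 140 TPM in replicates 1, 2 and 3. Its values all lay within the range of Grik5, so the order of this pair did not hold against the spread between replicates. Grin1, the obligatory NMDA receptor subunit gene, followed with 108 ± 22.8 TPM. Grin1 has 9700 bp of merged exons but 4276 bp in its longest coding transcript, against 5168 and 3763 bp for Grik5. In addition, 13.5% of the exon bases of Grin1 overlap a gene on the opposite strand. Grin1 had 29038, 14991 and 7933 counts in replicates 1, 2 and 3, against 19689, 10480 and 5995 for Grik5. Divided by the longest coding transcript, these counts put Grin1 above Grik5 in each replicate. Grik5 therefore did not keep rank 3 with that length. The full ranking with other lengths was not tested. Grik4 ranked 8, Grik2 ranked 10, Grik3 ranked 12 and Grik1 ranked 18, the last place.

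**Figure D3:**
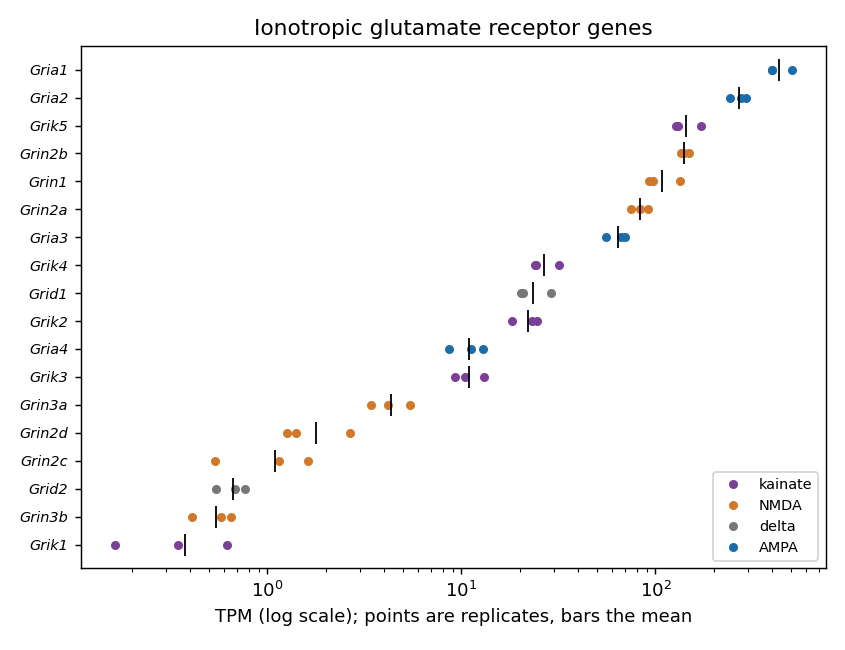
TPM (log axis) of the 18 ionotropic glutamate receptor genes, ordered by mean, coloured by family, with 1 point for each of the 3 replicates and a bar at the mean. With merged exons as the length, the kainate receptor genes run from Grik5 at rank 3 to Grik1 at rank 18.

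By family sum, kainate receptor mRNA was the least abundant of the 3 main families. The kainate sum was 240, 180 and 189 TPM in replicates 1, 2 and 3, against 383, 313 and 322 TPM for the 7 NMDA receptor genes and 878, 705 and 749 TPM for the 4 AMPA receptor genes. The sums did not overlap between families. The AMPA sum was 3.84-fold the kainate sum (log2 ratio of kainate to AMPA -1.94 ± 0.06), and the NMDA sum was 1.68-fold the kainate sum (-0.75 ± 0.07; SD, n = 3; exact p = 0.25 for each, two-sided). Both differences were many times larger than their spread between replicates.

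The order of the members in the middle of the range turned on the length that the counts were divided by. Before division by length, Grik2 was above Grik4 and Grik3 above Neto1. With the longest coding transcript of each gene, Grik2 rose to 30.9 ± 4.62 against 27.1 ± 4.49 for Grik4, and Neto1 fell to 8.25 ± 1.33, under Neto2 with 11.8 ± 1.16 and Grik3 with 10.9 ± 1.97. When the length of Neto1 was limited to the bases that the table counts, its level was again 19.5. Grik5 was first, with 143 to 197 TPM, and Grik1 last, with 0.377 to 0.637 TPM, under all 3 lengths.

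**Figure D4:**
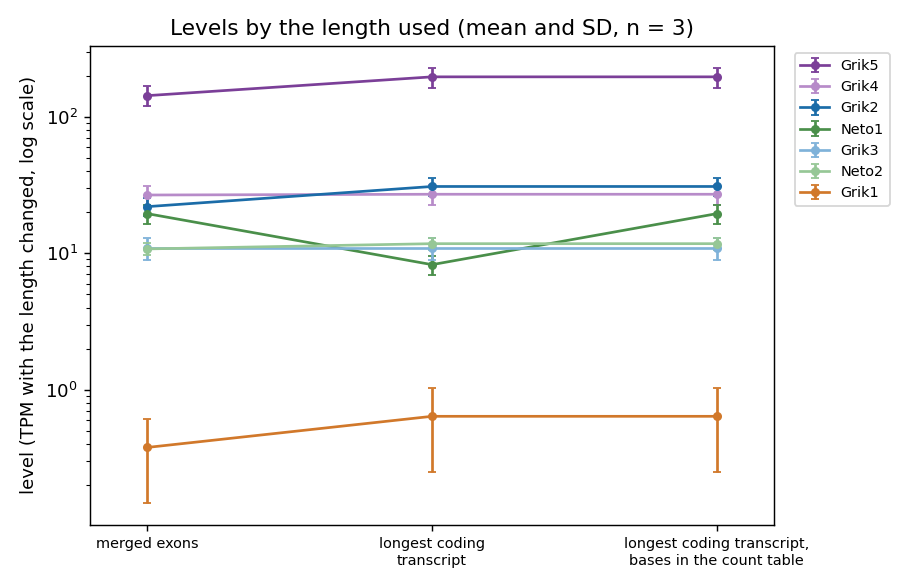
Mean level and SD of the 7 genes over 3 replicates (TPM with the length changed, log axis) with merged exons, the longest coding transcript, or the bases of that transcript inside the table's gene model as the length. The lines of Grik4 and Grik2 cross, Neto1 drops to 8.25 under the second length only, and Grik5 and Grik1 stay at the ends.

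Little of the sequence of the members occurs in other genes. The share of 31-base words in the transcripts of a member that also occur in transcripts of another gene was 0.0163% for Neto2, 0.886 to 1.17% for the 5 subunit genes and 2.45% for Neto1. Words shared with another of the 7 genes numbered 0 to 25 per gene. Exon bases overlapping another gene came to 59 bp in Grik4, with Gm24420 on the same strand, and 20 bp in Neto2, with Mir8109 on the opposite strand, and to none in the other 5 genes.

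The spread between replicates was compared after scaling the libraries to each other by median-of-ratios size factors, in which no single feature sets the scale. On these normalized counts the coefficient of variation of the 6 detected genes was 3.93% for Grik3, 4.49% for Neto2, 4.70% for Grik5, 5.93% for Grik4, 7.84% for Grik2 and 8.70% for Neto1. All 6 were below the median of 8.76% over the detected protein-coding genes, Neto1 only just. That median was not matched for the level of the genes. Counting error alone corresponds to 1.00 to 3.39% for these genes. With 3 replicates these values are themselves uncertain, and without replicate 3 that of Grik4 was 0.0477%. For Grik1, 27.0, 16.6 and 57.4 normalized counts in replicates 1, 2 and 3 gave 63.0%, against a counting error of 19.5%. Without replicate 3 the value for Grik1 was 33.6%.

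The direction of the small deviations was not the same for all members. Grik2 and Neto1 were highest in replicate 3, by 0.12 and 0.13 above their mean on the log2 scale, and Grik4 and Grik5 were lowest there, at -0.10 and -0.08. Grik3 was highest in replicate 1 and Neto2 in replicate 2. Grik1 deviated by -0.32, -1.02 and 0.77 in replicates 1, 2 and 3. The summed normalized counts of the 7 astrocyte markers, 6 of them detected, had the same order of replicates as Grik1, with 11089, 7339 and 13302. Most of this sum was Slc1a2, with 8535, 5938 and 10268. Gjb6, Slc1a3, Aldoc and Aldh1l1 had the same order. Gfap, with 583, 203 and 348, and Aqp4, with 246, 130 and 211, did not, being highest in replicate 1. The summed normalized counts of the 5 interneuron markers were 3075, 2450 and 3080, with replicate 2 again the lowest. Gad2, the GABA-synthesizing enzyme of interneurons, had 113, 14 and 26 counts. The part of these cells in the Grik1 counts was not tested. The CA1 list sum was 36474, 38099 and 32752, and the dentate granule list sum was 22459, 19636 and 19497, with replicate 1 the highest. The oligodendrocyte list sum was 22248, 27631 and 21052, and the excitatory neuron list sum was 149165, 149933 and 134655. Each of these sums was lowest in replicate 3, like Grik4 and Grik5, so this was not particular to the CA1 list. The CA3 list sum, 2116, 1825 and 1927, was lowest in replicate 2. Their part in the levels of the members was not tested either.

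**Figure D5:**
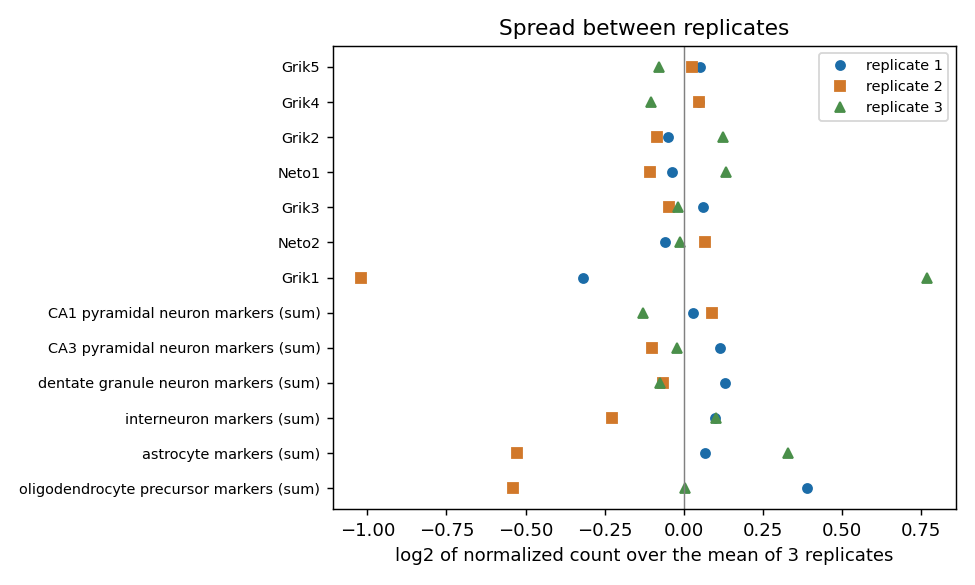
Log2 of the normalized count in each replicate over the mean of the 3 replicates, for the 7 genes and for the summed counts of 6 cell type marker lists. The 6 detected genes stay within -0.11 and 0.13, and Grik1 ranges from -1.02 to 0.77.

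Genes whose products bind, place or turn over kainate receptors were detected in all 15 cases analysed, against 57.0% of protein-coding genes and 30.3% of all genes. Of 7 scaffold genes, all 7 were detected, with a median of 18.4 ± 3.27 TPM (SD, n = 3). Dlg4, which encodes PSD-95, had 208 ± 39.9 TPM, Dlg3, which encodes SAP102, had 74.9 ± 12.5, and Grip1, a PDZ protein that binds GluK2, was the lowest with 5.21 ± 0.875 TPM. The value of Dlg4 is uncertain, since the count table gives it 4982 bp of exons against 13251 bp in vM21. The synaptic organizers that gather kainate receptors at mossy fiber synapses were detected, 3 of 3, with C1ql2, also a member of the dentate granule neuron list, at 196 ± 42.8 TPM, C1ql3 at 75.7 ± 11.6 TPM and their presynaptic binding partner Nrxn3 at 37.9 ± 2.69 TPM. The value of C1ql3 is uncertain, since 64.2% of its exon bases overlap a gene on the opposite strand and the use of strand in counting is not given in the sources used here.

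Of 5 listed genes of receptor trafficking and turnover, 4 were analysed and all 4 were detected. Snap25, a SNARE protein that takes part in the removal of kainate receptors from the membrane, had 266 ± 46.1 TPM, and Cul3, a scaffold of ubiquitin ligases, had 37.3 ± 6.27 TPM. Kif17, a dendritic kinesin that carries GluK2, had 16.9 ± 2.67 TPM, and Klhl24, which interacts with GluK2, had 16.3 ± 3.45 TPM (SD, n = 3). The table's model of Klhl24 is also shorter than that of vM21, 6683 against 10183 bp. Klhl17 was not analysed here. Gnao1, the G protein subunit linked to metabotropic signalling by kainate receptors, had 70.0 ± 9.70 TPM.

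The genes of the ADAR family were also detected, 3 of 3 listed, against 57.0% of protein-coding genes and 30.3% of all genes. Adar, 16.8% of whose exon bases overlap a gene on the opposite strand, had 27.4 ± 5.98 TPM, and Adarb1, whose product ADAR2 edits the Q/R site, had 19.97 ± 4.16 TPM. Adarb2, for which no editing activity is known, had 7.08 ± 1.10 TPM (SD, n = 3). The range of Adarb1 over the replicates, 16.3 to 24.5 TPM, overlapped that of Grik2. Grik1, the other kainate receptor gene with a known edited Q/R site, lay below all 3 genes in every replicate.

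For scale, the protein-coding gene nearest to each member in log2(TPM + 1) over the 3 replicates was Srsf5, a splicing factor gene, for Grik5 (143 TPM), 1110051M20Rik for Grik4 (26.9), Mef2c, a neuronal transcription factor gene, for Grik2 (21.9) and Ptpn12, a phosphatase gene, for Neto1 (19.4). It was Vamp1, a synaptic vesicle SNARE gene, for Grik3 (10.8 TPM), Cebpg, a transcription factor gene, for Neto2 (10.7) and Dock1, a Rac activator gene, for Grik1 (0.395). Distances over the 3 replicates were 0.0149 to 0.0494, smallest for Grik5 and largest for Grik1. With a pseudocount of 0.1 the nearest gene was the same for 6 of the 7 members, and for Grik1 it became Loxl3.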

How the data were processed

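RNA-Seq of sorted tdTomato-positive cells of the hippocampus was used from 3 biological replicates, which form 1 group. Per the labels, poly(A) RNA was sequenced as paired-end reads. The authors deposited raw counts per gene with merged exon lengths. The submitters' processing notes name STAR, featureCounts, mm10 and GRCm38 without versions. Strand, multimapping and read or fragment counting are not given in the sources used here. All 3 replicate columns were used and 0 were left out. Of 52636 genes, 52489 were named by GENCODE vM21. The 7 members were named by rule, and members and lists were chosen with earlier results of these data known. Some markers were matched through RefSeq synonyms.

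TPM was computed from the counts and lengths over all genes, and genes reaching 1 CPM in all 3 replicates were called detected. Size factors by median of ratios were 1.78, 0.963 and 0.592. TMM factors from edgeR 4.0.16 in R 4.3.3 were 0.989, 1.01 and 1.01 and served the alternatives. Ratios were tested by exact sign-flip permutation over replicates, with Benjamini-Hochberg adjustment over the 6 neighbouring pairs. The coefficient of variation and Poisson intervals were computed with numpy 2.4.6, pandas 2.3.3 and scipy 1.17.1 in Python 3.11.15. Only TPM and the size factors were checked on simulated data. Figures were drawn with matplotlib 3.10.9. The counts of the 3 libraries differed by more than sampling noise (chi-square over degrees of freedom 11.7 to 54.5), so each was counted as 1 sample. Replicates 1 to 3 are separate pools of mice, and the SDs measure the spread between these pools. Alternatives were the scale, length, pseudocount, detection threshold and leaving out each replicate.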

Additional observations from a re-analysis of the deposited data

How the results depend on the processing

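No analysis paired between conditions was possible because the series has only 1 group. Ratios between genes were taken within each replicate. Of 163 alternative values over 31 results, 110 kept their direction or, for values with no test, stayed within the spread between replicates, 44 moved and 9 reversed. Levels on another scale were compared with the SD in TPM, so many of the moved values only reflect a change of unit. Orders and counts were called kept within a set fold limit, so 5 of 7 ranks counted as kept. The tally is therefore no measure of how firm the results are. A kept direction is not a kept size: Grik2 to Neto1, 0.17 on the log2 scale, was 1.91 with the longest coding transcript, 0.66 with its bases inside the table and 2.08 with no division by length. Over nuclear protein-coding genes, TPM was 1.22, 70.3, 34.7, 85.1, 455, 62.3 and 34.5 for Grik1, Grik2, Grik3, Grik4, Grik5, Neto1 and Neto2. Normalized counts per kb were 5.45, 318, 157, 387, 2069, 282 and 156 in the same order, and RPKM with TMM was 11.9, 5.87, 14.4, 77.1, 10.5 and 5.83 for Grik2 to Neto2. Such changes of scale leave the order as it was. Under no division by length, the longest coding transcript, or its bases inside the table (chosen after the data were seen), 3 of 7 members kept their rank.

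The log2 ratio of Grik4 to Grik2 was -0.87 with no division by length and -0.19 with either coding length. Neto1 to Grik3 was -0.50 with no division and -0.40 with the longest coding transcript, where Neto1 to Neto2 was -0.52. Grik3 to Neto2 was -0.12 with either coding length. The shares of Grik3, Grik4 and Grik5 were then 4.09, 10.2 and 73.8%, and kainate to NMDA was -0.92. On TPM, the coefficient of variation was 14.96, 18.1, 16.6, 16.7, 16.2 and 9.85% for Grik2, Grik3, Grik4, Grik5, Neto1 and Neto2.

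Leaving out 1 replicate at a time, levels ranged over 0.256 to 0.484 TPM for Grik1, 20.7 to 23.8 for Grik2, 9.82 to 11.7 for Grik3, 24.2 to 28.1 for Grik4, 129 to 151 for Grik5, 18.3 to 21.3 for Neto1 and 10.2 to 11.2 for Neto2. The order kept 5 to 7 ranks, and the log2 ratios were -0.051 to 0.067 for Grik3 to Neto2, 0.22 to 0.40 for Grik4 to Grik2 and 0.78 to 0.94 for Neto1 to Neto2. The value of -0.051 came without replicate 1. The coefficient of variation on normalized counts was 33.6 to 77.9% for Grik1, 1.696 to 10.1% for Grik2, 1.52 to 5.35% for Grik3, 0.0477 to 7.42% for Grik4, 1.20 to 6.32% for Grik5, 3.37 to 11.7% for Neto1 and 2.28 to 6.24% for Neto2. The lowest values of Grik1, Grik2, Grik4, Grik5 and Neto1, and the lowest level of Grik1, came without replicate 3. With 3 replicates the smallest exact permutation p is 0.25, and 16 to 48 counts limit what can be said of Grik1.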
